A study of Mus musculus with 8 samples.

Results

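The 32 genes described here are transcripts by which macrophages, monocytes and dendritic cells of the mouse heart are commonly recognised. They were taken by symbol, from a list chosen with earlier results of these data known. The gene numbers in the 8 deposited tables were matched to mouse symbols, and each of the 32 was found, among 18215 gene numbers in all. Hearts of mice with a Carns transgene (TG, 4 libraries) were compared with wild-type hearts (WT, 4 libraries), from polyadenylated RNA of heart tissue in both groups. Carns1 encodes carnosine synthase, which makes histidyl dipeptides such as carnosine, and the study asked what these dipeptides do in the heart. Strain, age, sex, the promoter of the transgene, the part of the heart taken and whether a library is 1 animal are not given in the sources used here. The p-values therefore reflect only how much these samples vary, and that variation may be technical.

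The adult heart holds resident macrophages that lie between the muscle cells and along vessels, take up debris and renew themselves locally, and a smaller population replenished from blood monocytes that carry the receptor Ccr2. Their survival depends on signalling through the receptor Csf1r. Dendritic cells and part of the macrophages present peptides on MHC class II molecules, whose alpha and beta chains are assembled with the invariant chain Cd74. The genes were ordered by these roles: 11 shared by myeloid cells and other leukocytes, 9 of macrophage identity and clearance, 6 of resident macrophages, and 6 of recruited or antigen-presenting cells.

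Library totals lay between 6261176 and 7897611 counts. The widest gap in these totals separated 4 deeper libraries (TG replicates 1 and 3, WT replicates 1 and 2) from 4 shallower ones (TG replicates 2 and 4, WT replicates 3 and 4), so both depth classes held 2 libraries of each group. Carns1 stood between 19070 and 24290 counts per 1000000 counts (CPM) in TG and between 44.5 and 73.3 CPM in WT, which fits the titles of all 8 libraries. The cardiomyocyte genes Myh6 and Tnnt2 were abundant in every library, with at least 22830 and 4749 CPM. Atrial and fat genes stood apart in TG replicate 2, where Myl7 was at 202.7 CPM (at most 46.8 elsewhere) and Adipoq at 68.4 CPM (at most 3.12 elsewhere). Some neutrophil genes stood apart in TG replicate 1, as given with the class II genes.

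On the FPKM scale, which counts fragments per kilobase of transcript and so allows levels of different genes to be compared, the 32 genes spanned from 0.34 FPKM for Itgax to 263 FPKM for Cd74 as means over 8 libraries. The means of 5 genes exceeded 100 FPKM, namely Cd74, Lyz2 (216), C1qa (129), C1qb (127) and C1qc (118 FPKM). The means of 3 genes were under 1 FPKM, namely Ptprc (0.69), Ccr2 (0.50) and Itgax (0.34). Each gene was listed in every library, the lowest count being 4.04 for Ccr2 in TG replicate 3, above the 3 counts taken as the floor. Of the resident macrophage genes, Timd4 was scarce at a mean of 1.65 FPKM, and the others averaged between 3.23 (Cd163) and 22.4 FPKM (Folr2). Ccr2 and Itgax came closest to the floor of the 32, with 4.04 to 20.1 and 4.36 to 18.6 counts over the libraries. These 2 genes alone do not show how many recruited monocytes or dendritic cells the hearts held.

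**Figure D1:**
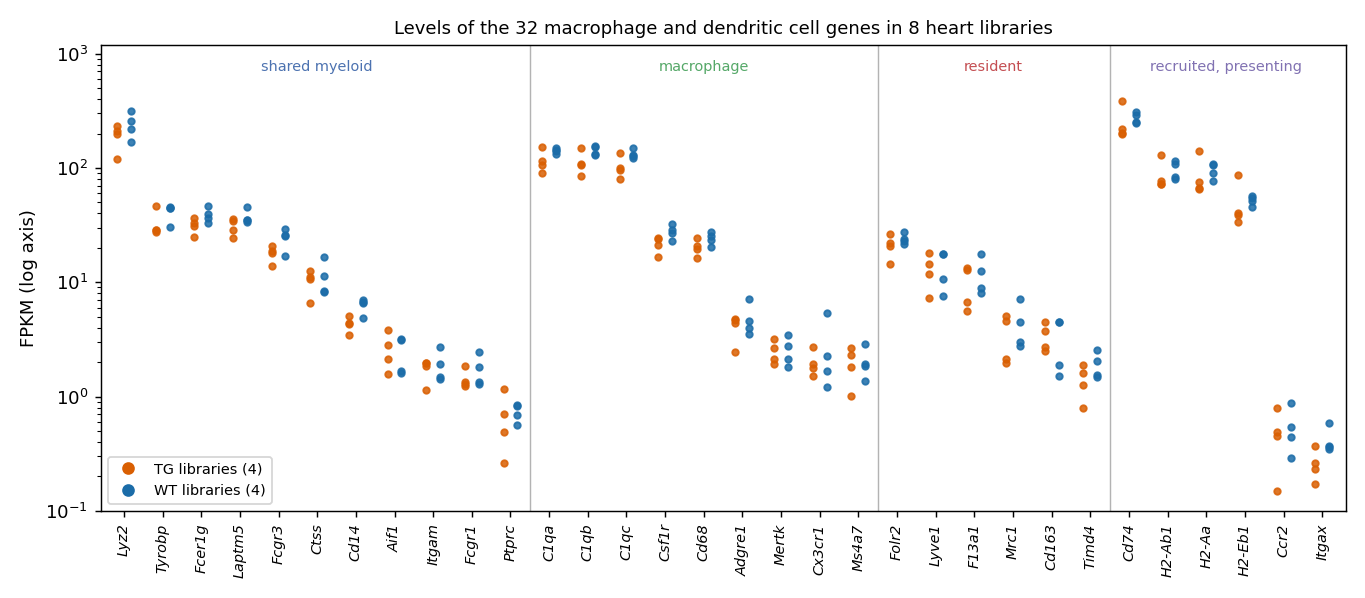
Level of each of the 32 genes in each library (FPKM, log axis), by role, with the 4 TG libraries in orange and the 4 WT libraries in blue. C1q chains, Lyz2 and Cd74 sit near or above 100 FPKM on average, and Ccr2 and Itgax near or below 1 FPKM.

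No difference between TG and WT hearts passed the test over all genes for any of the 32 genes, although 30 of the 32 had a lower mean level in TG on the fitted scale. The median log2 fold change, TG relative to WT, was -0.23 over the 32 genes and -0.002 over the 12670 genes tested, of which 50.5% had a negative value. By edgeR's quasi-likelihood test with Benjamini-Hochberg adjustment, 0 of 32 passed an adjusted p of 0.05, against a background of 0.0158% of the genes tested (2 genes). DESeq2 also called 0 of 32, against 0.118%. An unadjusted p under 0.05 was found on the lower side for 4 of 32 (12.5%), namely Cd14, Csf1r, Fcgr3 and C1qc, against 1.96% of all genes, and on the higher side for 0 of 32. The groups overlapped in each of the 32 genes, while 1.29% of all genes had 4 TG values below 4 WT values. In heart tissue, fewer cells of a type and less RNA per cell cannot be told apart.

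The lower median rested in large part on single libraries. TG replicate 3 held the lowest of the 8 values for 21 of the 32 genes and WT replicate 4 the highest for 17. Without TG replicate 3 the median log2 fold change was -0.11 and 21 of 31 tested genes had a negative value, and without WT replicate 4 it was -0.08, with 23 of 32 negative. Leaving out TG replicate 1 moved it the other way, to -0.36, a shift of over 1.5 times. Within the deeper libraries the median was -0.22, with 21 of 32 negative, and within the shallower libraries it was -0.28, with 29 of 31 negative.

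**Figure D2:**
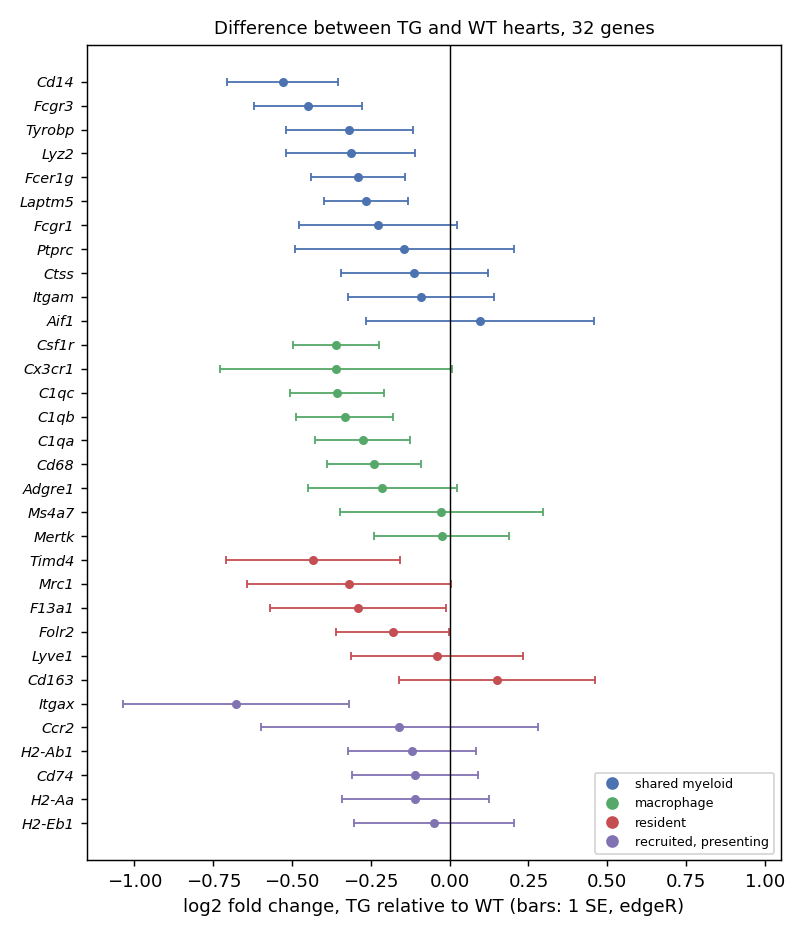
Log2 fold change of each gene, TG relative to WT, with 1 standard error from the edgeR fit (4 libraries per group), coloured by role. All but Aif1 and Cd163 lie left of 0, and no gene passed the adjusted threshold.

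Among the 11 genes shared by myeloid cells, 10 had a negative log2 fold change, with a median of -0.26. Cd14, the co-receptor that hands bacterial lipopolysaccharide to Toll-like receptor 4, had 7.57, 7.14, 5.98 and 8.32 CPM across TG replicates 1 to 4, against 8.11, 11.9, 10.8 and 11.2 CPM for WT. TG values lay below WT values except that TG replicate 4 exceeded WT replicate 1. Its log2 fold change was -0.53 (SE 0.18; edgeR, Benjamini-Hochberg adjusted p = 0.9995, unadjusted p = 0.011), and leaving out single libraries gave values from -0.64 to -0.45.

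Fcgr3, a low-affinity receptor for immunoglobulin G, had 25.7, 24.1, 19.1 and 26.9 CPM across TG replicates, against 22.9, 35.7, 38.8 and 33.5 CPM for WT. WT replicate 1 lay among the TG values and the other 3 WT libraries above them. The fitted difference was -0.45 on the log2 scale (SE 0.17, unadjusted p = 0.021 by edgeR). Tyrobp and Fcer1g, the membrane adaptors that carry activating signals from such receptors, averaged 18.5 ± 5.5 and 20.9 ± 3.3 CPM in TG libraries, against 23.2 ± 4.2 and 25.5 ± 3.4 CPM for WT (SD, n = 4). By library Tyrobp had 26.8, 15.2, 16.5 and 15.6 CPM in TG replicates 1 to 4, against 25.0, 26.1, 16.8 and 24.8 CPM for WT. TG replicate 1 lay just above the highest WT library and WT replicate 3 next to the lower TG values.

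Lyz2, the lysozyme of myeloid cells, was the most abundant of the shared genes, at 228, 242, 129 and 203 CPM in TG and 175, 282, 226 and 315 CPM in WT. The groups overlapped widely, with TG replicate 3 lowest and WT replicate 4 highest. Reads of Lyz2 can also fit its close copy Lyz1, so its count depends on how shared reads were divided. Laptm5, a lysosomal membrane protein of blood cells, averaged 74.8 ± 12.4 CPM (TG) and 89.9 ± 10.6 CPM (WT), and Ctss, the lysosomal protease that trims the invariant chain, 13.8 ± 3.3 and 14.9 ± 4.7 CPM (SD, n = 4 each).

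The remaining shared genes were scarce. Itgam, the integrin chain CD11b, averaged 8.29 ± 1.86 CPM (TG) and 8.87 ± 2.54 CPM (WT), and Fcgr1, the high-affinity immunoglobulin G receptor, 3.76 ± 0.80 and 4.45 ± 1.24 CPM. Ptprc, the leukocyte surface phosphatase CD45, stood at 3.502 ± 1.906 and 3.86 ± 0.64 CPM (SD, n = 4 each). Aif1, the calcium-binding protein IBA1, was the 1 shared gene with a positive value, averaging 2.24 ± 0.87 CPM (TG) and 2.08 ± 0.82 CPM (WT; SD, n = 4), a log2 difference of 0.10 with an SE of 0.36.

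All 9 genes of macrophage identity and clearance had a negative log2 fold change in the main fit, with a median of -0.28. Csf1r, the receptor for the growth factors Csf1 and Il34, had 95.9, 83.3, 67.2 and 92.7 CPM across TG replicates 1 to 4, against 105.6, 118.8, 89.2 and 122 CPM for WT. Only WT replicate 3 fell within the TG range. The log2 fold change was -0.36 (SE 0.14; edgeR, Benjamini-Hochberg adjusted p = 0.9995, unadjusted p = 0.020), at -0.46 among the deeper libraries and -0.26 among the shallower. Both of its ligands were measured: Csf1 averaged 100.8 ± 17.7 CPM (TG) and 108 ± 16 CPM (WT; SD, n = 4 each), and Il34 ranged over 5.08 to 8.62 CPM (TG) and 5.54 to 8.27 CPM (WT).

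C1qa, C1qb and C1qc encode the chains of C1q, the recognition molecule of the classical complement pathway, which tissue macrophages produce. C1qc had 145.7, 104.4, 85.5 and 97.2 CPM across TG replicates, against 129.3, 143.7, 132.1 and 149.8 CPM for WT. TG replicates 2 to 4 lay below the lowest WT library and TG replicate 1 within the WT range. For C1qb the TG libraries had 160.1, 111.4, 91.2 and 110.4 CPM against 136.3, 166.7, 137.9 and 155.4 CPM, in the same arrangement. For C1qa they had 169.2, 111.8, 98.98 and 119.4 CPM against 149.5, 168.6, 138.8 and 148.1 CPM, and here TG replicate 1 lay just above the highest WT library. The log2 fold changes were -0.28, -0.33 and -0.36 for C1qa, C1qb and C1qc (SE 0.15 for each), with unadjusted p values of 0.090, 0.050 and 0.031 by edgeR and an adjusted p of 0.9995.

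The chains kept nearly fixed proportions. Of their summed FPKM, C1qa made 32.3% to 36.1%, C1qb 33.1% to 35.1% and C1qc 29.9% to 33.2% over the 8 libraries, while the sum itself ranged from 254 FPKM in TG replicate 3 to 448 FPKM in WT replicate 4. The genes lie side by side on mouse chromosome 4. The sequences before the starts of C1qb (chr4:136886201-136886450, minus strand) and C1qc (chr4:136892915-136893164, minus strand) are shown, and their part in the proportions was not tested. Each covers 250 bases, from RefSeq on GRCm38.p6, with capitals for GAGGAA or its complement TTCCTC, a purine-rich run of the kind that the myeloid factor Spi1 (PU.1) binds.
C1qb: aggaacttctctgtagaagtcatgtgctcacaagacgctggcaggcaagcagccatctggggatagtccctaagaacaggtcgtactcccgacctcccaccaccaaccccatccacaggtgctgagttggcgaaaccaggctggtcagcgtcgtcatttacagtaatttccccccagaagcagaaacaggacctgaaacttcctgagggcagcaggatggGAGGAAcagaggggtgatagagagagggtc
C1qc: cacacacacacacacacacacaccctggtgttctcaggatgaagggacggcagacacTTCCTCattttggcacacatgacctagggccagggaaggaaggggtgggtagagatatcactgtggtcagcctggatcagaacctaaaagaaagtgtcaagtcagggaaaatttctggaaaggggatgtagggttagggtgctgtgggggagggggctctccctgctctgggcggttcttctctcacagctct

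Both windows held 1 match, on the strand of the gene and 30 bases before the start in C1qb, and on the opposite strand and 193 bases before the start in C1qc. Promoter entries were matched for 24 of the 32 genes, and 12 of these held the letters on either strand of at least 1 start, against 23.3% of 32851 promoter windows of that length in the mouse table. A gene with several starts has several chances to hold a match. A match is a run of letters and not a bound site. Spi1 itself had 17.5, 8.73, 10.98 and 11.9 CPM across TG replicates, against 14.7, 15.01, 12.9 and 16.2 CPM for WT, where TG replicate 1 was the highest of the 8 libraries and TG replicates 2 to 4 the lowest.

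Of the other macrophage genes, Cd68, a glycoprotein of the endosome and lysosome, averaged 25.3 ± 4.1 CPM (TG) and 29.9 ± 4.1 CPM (WT; SD, n = 4 each). Adgre1, which encodes the F4/80 antigen, had 14.9, 15.2, 8.20 and 15.3 CPM across TG replicates, against 11.5, 13.6, 14.7 and 22.5 CPM for WT. TG replicate 3 was lowest and WT replicate 4 highest, and the log2 fold change of -0.21 became 0.01 without WT replicate 4. Cx3cr1, the fractalkine receptor, averaged 7.59 ± 1.84 CPM (TG) and 9.84 ± 6.74 CPM (WT; SD, n = 4 each), and here WT replicate 4 reached 19.7 CPM while the other 7 libraries lay between 4.91 and 10.1 CPM. Mertk, the receptor by which macrophages bind and engulf dying cells, stood at 8.94 ± 1.76 and 9.12 ± 2.32 CPM, and Ms4a7, a tetraspanning membrane protein, at 2.60 ± 0.96 and 2.66 ± 0.77 CPM (SD, n = 4 each). The log2 differences of these 2 genes were both -0.03, with SEs of 0.21 and 0.32.

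Of the 6 resident macrophage genes 5 had a negative log2 fold change, with a median of -0.24, and none had an unadjusted p under 0.05 by edgeR. Timd4, a receptor for phosphatidylserine on apoptotic cells, had 2.87, 3.49, 1.81 and 4.01 CPM across TG replicates, against 3.35, 3.41, 4.36 and 5.35 CPM for WT. Folr2, a folate receptor, had 29.6, 23.5, 16.0 and 22.0 CPM across TG replicates, against 25.9, 31.0, 24.2 and 22.2 CPM for WT. The groups overlapped in both, at log2 differences of -0.43 (SE 0.27) and -0.18 (SE 0.18).

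In 6 of the 32 genes, Lyve1, Mrc1, Cd163, F13a1, Timd4 and Mertk, every shallower library lay above every deeper one, by little in Timd4 (3.49 against 3.41 CPM). How many of all genes were separated in this way was not counted. Over all genes, 17.8% were called higher in the shallower libraries (edgeR, adjusted p under 0.05). Lyve1, a hyaluronan receptor of perivascular macrophages and lymphatic vessels, had 31.8, 47.3, 19.6 and 37.1 CPM across TG replicates 1 to 4, against 28.3, 21.01, 45.6 and 44.8 CPM for WT. The mannose receptor Mrc1 had 11.9, 24.6, 10.98 and 26.7 CPM across TG replicates, against 16.1, 15.8, 23.9 and 36.7 CPM for WT. The groups overlapped widely in both genes.

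Cd163, the scavenger receptor for haemoglobin bound to haptoglobin, had 12.5, 17.0, 11.5 and 19.9 CPM across TG replicates, against 8.50, 7.23, 20 and 19.4 CPM for WT. F13a1, the A chain of coagulation factor XIII, had 27.1, 51.4, 22.4 and 48.4 CPM across TG replicates, against 35.0, 32.9, 48.1 and 66.5 CPM for WT. The differences between TG and WT did not pass the test, with log2 fold changes of -0.04 (SE 0.27) for Lyve1, -0.32 (SE 0.32) for Mrc1, 0.15 (SE 0.31) for Cd163 and -0.29 (SE 0.28) for F13a1.

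With depth class as a term beside group, the SE of the group difference shrank to 0.13 for Mrc1 and 0.12 for F13a1, at log2 fold changes of -0.34 and -0.32. Their unadjusted p values there were 0.023 and 0.016, and no member passed the adjusted threshold (smallest adjusted p = 0.325, edgeR with Benjamini-Hochberg adjustment). In that fit 10 of the 32 genes had an unadjusted p under 0.05, against 8.97% of all genes, which is itself a higher share than without the term (442 of 12670 genes, against 1136). The lymphatic markers, which share Lyve1, summed to between 196 and 220.1 CPM in TG and between 188 and 211 CPM in WT, and their part in the Lyve1 values was not tested.

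The depth term of the same fit, examined only once the data had been seen, gives the size of that separation. Shallower libraries were higher by 1.04 on the log2 scale for Mrc1 (SE 0.13, adjusted p = 4.75e-04), by 0.95 for Cd163 (SE 0.15, adjusted p = 0.0011), by 0.88 for F13a1 (SE 0.12, adjusted p = 5.08e-04) and by 0.79 for Lyve1 (SE 0.15, adjusted p = 0.0026). Mertk and Ctss also passed, at 0.52 and 0.50 (adjusted p = 0.016 and 0.042, all by edgeR with Benjamini-Hochberg adjustment). That made 6 of 32 genes (18.75%), all higher in the shallower libraries. Over all genes 32.2% passed for depth class and 17.8% passed with the shallower libraries higher, so the share among the 32 genes was near the background.

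Longer genes among the 32 stood higher in the shallower libraries. Of 15 genes with a transcript length of at least 2000 bases in the deposited tables, 14 had a positive depth term, with a median of 0.59. Of 17 shorter genes 5 did, with a median of -0.11. Spearman's rho between length and the depth term was 0.66 across the 32 genes and 0.29 across all 12670, where genes share the same 8 libraries and are not independent replicates. The exception on the long side was Itgax (4025 bases, -0.51, SE 0.34), and Csf1r (3875 bases) lay at 0.01 (SE 0.12). Length was not related in this way to the difference between TG and WT among the 32 genes (rho 0.02), while over all 12670 genes that rho was 0.17. The part of length in the depth differences was not tested.

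**Figure D3:**
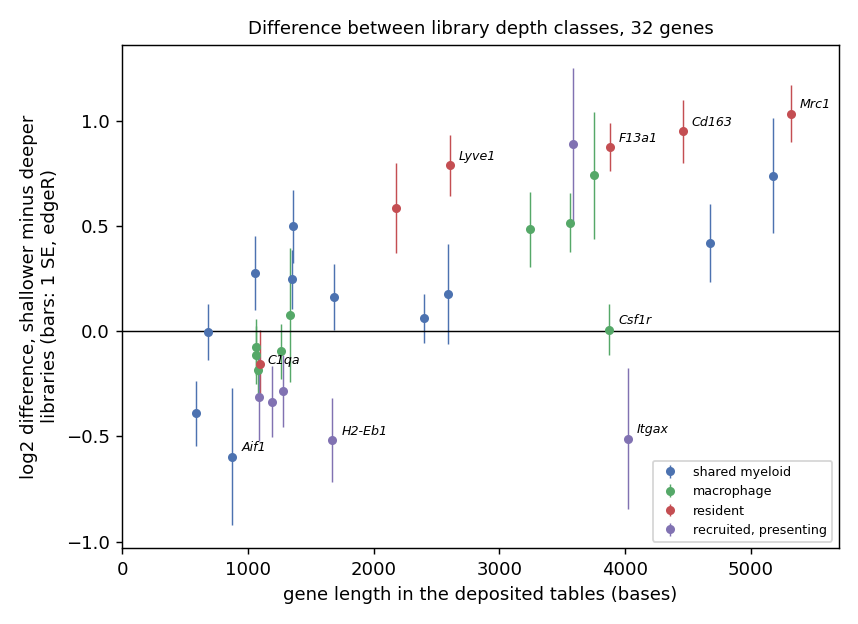
Log2 difference between the 4 shallower and the 4 deeper libraries (edgeR fit with group, bars 1 SE) against transcript length in bases, for the 32 genes by role. Mrc1 (5322 bases) and Cd163 (4460 bases) lie highest, while the class II genes and C1q chains, under 2000 bases, lie below 0.

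The antigen-presenting genes were marked by 1 library. Cd74 stood at 505 CPM in TG replicate 1 and at 254, 264 and 269 CPM in TG replicates 2 to 4, against 312, 388, 316 and 378 CPM in WT replicates 1 to 4. Among the chains, H2-Ab1 had 158.9, 85.2, 87.9 and 87.9 CPM across TG replicates, against 99.2, 142, 93.6 and 122.3 CPM for WT. TG replicate 1 was thus the highest of the 8 libraries and TG replicates 2 to 4 the lowest 3.

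H2-Aa showed the same order at its ends, with 156, 69.6, 73.0 and 78.6 CPM across TG replicates, against 82.4, 121.7, 94.8 and 108.8 CPM for WT. For H2-Eb1 the values were 147.8, 55.5, 68.7 and 63.3 CPM across TG replicates, against 85.3, 99.3, 75.5 and 87.6 CPM for WT. With TG replicate 1 included, the log2 fold changes were -0.11 for Cd74 (SE 0.20), -0.11 for H2-Aa (SE 0.23), -0.12 for H2-Ab1 (SE 0.20) and -0.05 for H2-Eb1 (SE 0.25). Without it they were -0.41, -0.46, -0.39 and -0.47, with unadjusted p values of 0.0052, 0.0062, 0.021 and 0.0034, and adjusted p values of 0.806, 0.826, 0.957 and 0.727 (edgeR, Benjamini-Hochberg). TG replicate 1 was singled out here because it was highest in Cd74 and the class II chains. Without it every TG value lay below every WT value, so these p values are no separate support for a difference. Class II genes differ in sequence between mouse strains, and the strain of these mice is unknown here.

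**Figure D4:**
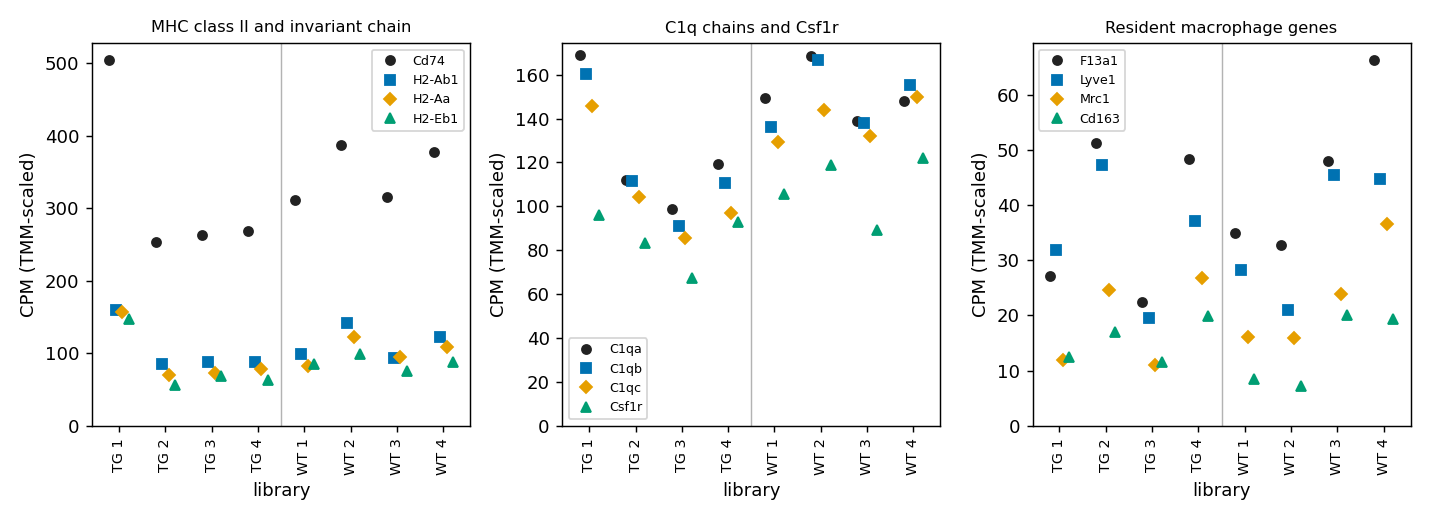
CPM on TMM-scaled libraries in each of the 8 libraries (TG left of the grey line, WT right) for the class II genes with Cd74, the C1q chains with Csf1r, and 4 resident macrophage genes. TG replicate 1 is highest for the class II genes, TG replicates 2 to 4 are lowest for the C1q chains, and the 4 resident genes are higher in the shallower libraries (TG 2, TG 4, WT 3, WT 4) than in the deeper ones.

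The class II genes kept near-fixed proportions as well. In summed FPKM the 3 chains ranged from 172 in TG replicate 2 to 358 in TG replicate 1, while the ratio of Cd74 to that sum stayed between 1.04 and 1.17. H2-Aa made 36.3% to 41.6% of the chain sum, H2-Ab1 36.4% to 42.3% and H2-Eb1 19.5% to 24.1%. Against the C1q chains the class II sum was 0.82 in TG replicate 1 and between 0.54 and 0.70 in the other 7 libraries.

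The sequences before the starts of H2-Aa (chr17:34287824-34288073, minus strand) and H2-Eb1 (chr17:34305617-34305866, plus strand) are also shown, from RefSeq on GRCm38.p6, 250 bases each. Their part in the proportions of the class II genes was not tested. Class II promoters are known for an X box and a Y box, bound by the RFX and NF-Y factors and used by the coactivator Ciita. Capitals mark GCAAC, a part of the X box, and CCAAT, the core of the Y box, or their complements GTTGC and ATTGG.
H2-Aa: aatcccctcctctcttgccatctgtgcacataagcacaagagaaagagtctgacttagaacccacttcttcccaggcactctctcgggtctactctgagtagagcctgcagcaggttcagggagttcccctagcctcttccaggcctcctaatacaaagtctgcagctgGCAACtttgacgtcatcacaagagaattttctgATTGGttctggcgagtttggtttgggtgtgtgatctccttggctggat
H2-Eb1: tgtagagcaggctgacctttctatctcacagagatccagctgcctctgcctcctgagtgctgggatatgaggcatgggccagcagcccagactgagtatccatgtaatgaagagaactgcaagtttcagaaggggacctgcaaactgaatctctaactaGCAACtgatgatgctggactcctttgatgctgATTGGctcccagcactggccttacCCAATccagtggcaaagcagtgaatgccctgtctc

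In H2-Aa the GCAAC match began 81 bases and the ATTGG match 48 bases before the start. In H2-Eb1 they began 91 and 59 bases before it, with a second match, CCAAT, at 35 bases. The letters of the Y box core occurred in 33.8% of all promoter windows and those of the X box part in 29.9%, and in 10 and 7 of the 24 matched genes. Ciita was scarce, 1.34 to 1.96 CPM (TG) and 1.23 to 3.52 CPM (WT), highest in WT replicate 4 and not in TG replicate 1.

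TG replicate 1 also stood apart in some neutrophil genes. The 10 neutrophil markers summed to 98.0 CPM there and to between 19.5 and 27.6 CPM in the other 7 libraries. Mmp9, a matrix metalloproteinase stored in neutrophil granules, was at 54.9 CPM against at most 5.54 elsewhere, and the granule genes Ngp and Ltf were at 7.31 and 3.65 CPM against at most 0.61 and 0.15. In TG replicate 1, T and natural killer cell markers summed to 8.09 CPM and B cell markers to 11.7 CPM. Both lay within the ranges of the other libraries, 4.601 to 8.25 and 11.3 to 17.3 CPM. The part of these cells in the class II values was not tested.

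In 11 of the 32 genes, 3 of the 4 TG libraries lay below the lowest WT library, against 5.41% of all genes with at least 3. In 10 of these 11 the remaining TG library was replicate 1, namely in Laptm5, Tyrobp, C1qa, C1qb, C1qc, Itgax, Cd74, H2-Aa, H2-Ab1 and H2-Eb1. In Cd14 it was TG replicate 4. Without TG replicate 1, 14 of 31 tested genes had an unadjusted p under 0.05, against 4.89% of all genes in that fit, and 0 passed the threshold (smallest adjusted p = 0.366, for edgeR with Benjamini-Hochberg adjustment). That was the largest such count, and TG replicate 1 had been picked out by the values of these same genes. The C1q chains vary together, as do the class II genes with Cd74, so the 14 are not independent results. Fits without a different single library gave 1 to 6 of the genes, with 1 of 31 without TG replicate 3 and 2 of 32 without WT replicate 4.

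Ccr2, the chemokine receptor of recruited monocytes and their progeny, had 1.83, 1.59, 0.56 and 2.82 CPM across TG replicates, against 1.55, 1.09, 1.96 and 3.06 CPM for WT. The groups overlapped over nearly their whole range (log2 fold change -0.16, SE 0.44). Itgax, the integrin chain CD11c of dendritic cells, had 1.57, 0.63, 0.97 and 1.04 CPM across TG replicates, against 2.45, 1.501, 1.504 and 1.38 CPM for WT. It had the most negative log2 fold change of the 32, -0.68 (SE 0.36, unadjusted p = 0.081 by edgeR), at a lowest count of 4.36, where counting error is large.

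Of 129 tested genes in 16 further lists that do not belong to the 32, edgeR and DESeq2 called 0. By edgeR 3 lower and 8 higher genes had an unadjusted p under 0.05, beside 442 of all 12670 genes in either direction. The 3 lower genes were Cbr2 and Trem2, described below, and the B cell gene Cd79a (log2 fold change -0.77, unadjusted p = 0.041 by edgeR). The 8 higher genes were 4 atrial and 2 fat genes, the monocyte marker Hp and the neutrophil gene Mmp9. The atrial Myl7 and Sln, the fat genes Car3 and Lipe, and Hp were highest in TG replicate 2, and Mmp9 in TG replicate 1. Within the deeper libraries alone, with 2 per group, edgeR called 4 of 128, beside 59 of 12754 over all genes. The 4 were all lower in TG: the atrial peptide gene Nppa and the mast cell protease genes Tpsb2, Mcpt4 and Cma1, which were singled out after their values were seen. Of 17 tested growth factors, receptors and transcription factors of these cells, 10 had a negative log2 fold change, with a median of -0.00. Csf3r, the receptor for granulocyte colony-stimulating factor, averaged 7.49 ± 1.64 CPM (TG) and 5.54 ± 1.09 CPM (WT), and the transcription factor Irf8 11.4 ± 0.8 and 13.3 ± 1.5 CPM (SD, n = 4 each). The class II pathway outside the chains had 10 tested genes, 6 of them negative, at a median of -0.11. Its peptide exchange gene H2-DMa stood at 7.94 ± 1.79 and 9.85 ± 1.88 CPM, the costimulatory receptor Cd40 2.93 ± 0.48 and 2.32 ± 0.43 and the lysosomal protease Ctsl 109 ± 13 and 103 ± 7 CPM (SD, n = 4 each).

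Complement, lectin and clearance genes outside the 32 had a negative log2 fold change in 20 of 23, with a median of -0.19, beside 50.5% negative over all genes. The libraries at the ends were the same as for the 32 genes, with a mean log2 level of -0.34 for TG replicate 3 and 0.28 for WT replicate 4. Cbr2, a carbonyl reductase, had 59.8, 47.0, 41.6 and 49.0 CPM across TG replicates, against 70.5, 73.9, 59.3 and 62.1 CPM for WT, where TG replicate 1 exceeded WT replicate 3 by little. It had an unadjusted p of 0.0061 and an adjusted p of 0.9995 by edgeR with Benjamini-Hochberg adjustment. Trem2, a lipid-sensing receptor that signals through Tyrobp, averaged 2.08 ± 0.65 CPM (TG) and 4.03 ± 1.90 CPM (WT), and the abundant lipid carrier Apoe 503 ± 87 and 530 ± 70 CPM (SD, n = 4 each). The log2 fold change of Trem2 was -0.98 (unadjusted p = 0.020 by edgeR), at -1.705 in the deeper and -0.11 in the shallower libraries.

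Of 7 tested dendritic cell markers 5 were negative, at a median of -0.24, but the abundant ones, Cst3 (844 ± 120 CPM, TG; 1025 ± 162, WT) and Fscn1 (97.1 ± 16.6 and 115 ± 7 CPM; SD, n = 4 each), are also made by other cells. The defining markers Xcr1 and Clec9a lay between 1.16 and 2.73 CPM and between 1.03 and 3.82 CPM over the 8 libraries, and Siglech at or below 0.48 CPM. Of 6 tested monocyte markers 4 were negative (median -0.11), and the classical monocyte gene Ly6c2 was at or below 0.76 CPM in every library. The most abundant monocyte marker was Ace, the angiotensin-converting enzyme, also made by endothelium, with 192 ± 15 CPM for TG and 207.5 ± 25.1 for WT hearts. The monocyte marker Hp, haptoglobin, stood at 79.8 CPM in TG replicate 2, the library with fat genes, and at or below 5.94 CPM elsewhere.

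Marker lists of other heart cells were set beside the 32 genes by library. Relative to the mean of 8 libraries, the mean log2 level of the 32 genes was -0.53 for TG replicate 3, 0.39 for WT replicate 4 and between -0.09 and 0.14 in the other 6. In the same order the endothelial list stood at 0.08 and 0.21, the cardiomyocyte list at 0.07 and -0.09, the fibroblast list at -0.23 and 0.33, and the red cell list at -0.74 and -0.00. The lymphatic list stood at -0.12 and 0.11 and the atrial list at -2.05 and 0.64. Fibroblast, lymphatic and atrial genes thus lay on the same sides as the 32 genes in both libraries. Red cell genes did so in TG replicate 3 and endothelial genes in WT replicate 4. On the same sides in both were also the dendritic (-0.09 and 0.23), monocyte (-0.33 and 0.15) and B cell lists (-0.08 and 0.44). The T cell gene Cd4 was as well (-0.52 and 0.43). Neutrophil, mast cell and fat lists were negative in both. Their part in the result was not tested. Medians of the log2 fold change were -0.08 for 10 endothelial, -0.03 for 10 cardiomyocyte, 0.10 for 10 fibroblast and -0.01 for 7 lymphatic genes. For red cell genes (8 tested) the median was -0.24 and for mast cell genes (5 tested) -0.69. Named genes of both lists changed sign between the depth classes: the log2 fold change in the deeper and the shallower libraries was -1.43 and 0.55 for Tpsb2, -1.65 and 0.40 for Mcpt4, and -0.70 and 0.17 for the globin gene Hba-a1. The 4 neutrophil genes, 1 T cell gene (Cd4) and 3 B cell genes had medians of 0.50, 0.03 and -0.07. Atrial (6 tested) and fat genes (4 tested) had medians of 2.51 and 0.44, with sums of 926 and 1642 CPM in TG replicate 2 and at most 273 and 648 CPM elsewhere.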

How the data were processed

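Heart RNA of 4 TG and 4 WT samples was compared, grouped by sample title. Each deposited table gives, per the file headers, an expected count per gene (an estimated number of fragments, as deposited by the authors and not normalized) and an FPKM value, which the authors scaled per kilobase and per 1000000 fragments. Per the submitters' processing notes, Bowtie2 was used and the build was mm8; the counting program and the use of strand are not given in the sources used here. Genes at 0 are not listed and were taken as 0. Gene numbers were matched to symbols of GRCm38.p6 (18174 of 18215), and promoter sequences come from that build.

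Expected counts were rounded. Genes were filtered with edgeR's filterByExpr (12670 kept, each of the 32 among them) and tested with edgeR 4.0.16 (R 4.3.3) by the quasi-likelihood F-test, two-sided, with TMM scaling and no term but group; p-values were adjusted by Benjamini-Hochberg over all genes, at a threshold of 0.05. CPM uses TMM-scaled library sizes, and 3 counts correspond to 0.380 to 0.479 CPM before TMM scaling, which covers counting error only. Each SE was derived from the log2 fold change and its F value. Log2 library levels used a prior count of 2. Alternatives were DESeq2 1.42.0, limma 3.58.1 on log2(FPKM + 1) and log2(FPKM + 0.1), other scalings and filters, Carns1 left out, depth class, the replicate number as a block and 8 fits without 1 library. The scripts were tested on simulated counts.

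The 32 genes, the lists and the settings were chosen with earlier results of these data known. All 32 genes are accounted for; library values are given for the most abundant and the smallest-p genes of each role, for chain partners and for those the text turns on. By the naming rule, the most abundant gene and up to 2 with the smallest p of each further list were to be named; this was followed in part, and lists of other heart, lymphoid and mast cells are mostly given as sums and medians. Ngp, Ltf, Adipoq and other genes that mark a library were chosen after their values were seen. No pair of libraries in a group agreed within sampling noise (smallest chi-square per degree of freedom 4.46).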

Additional observations from a re-analysis of the deposited data

Results flagged for a closer look

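In groups of 4 libraries, the gap of the highest or lowest library to its nearest neighbour was set against the range of the group for each of the 32 genes. Chance marks about 1 in 20 groups, 64 groups were examined, and 9 were marked. The genes share the same libraries, and the share marked over all genes was not counted. The 4 class II values share 1 library.

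TG replicate 1 was marked as high in Cd74 (505.3 CPM, the other TG libraries at 254.1 to 269.0), H2-Aa (156.3, others 69.6 to 78.6), H2-Ab1 (158.9, others 85.2 to 87.9) and H2-Eb1 (147.8, others 55.5 to 68.7 CPM). The same library was marked as high in Tyrobp (26.75 CPM, others 15.2 to 16.5) and Fcgr1 (4.96 CPM, others 3.33 to 3.42). TG replicate 3 was marked as low in Adgre1 (8.20 CPM, others 14.9 to 15.3). In WT, replicate 3 was low in Tyrobp (16.84 CPM, others 24.8 to 26.1) and replicate 1 was high in Itgax (2.45 CPM, others 1.38 to 1.504).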

How the results depend on the processing

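None of the 32 genes passed the adjusted threshold in any of the 20 alternatives, and the median log2 fold change of the 32 stayed negative, between -0.36 (without TG replicate 1) and -0.08 (without WT replicate 4). The count of all genes called, 2 in the main fit, was 15 with DESeq2, 28 with depth class as a covariate, 59 in the deeper and 4 in the shallower libraries only, 4 with no filter, 1 in each limma fit, 0 with Carns1 left out (441 at an unadjusted p under 0.05 by edgeR) and 1 to 3 without 1 library. With the replicate block it was 1, and 0 of the 32 genes passed, as without it. Same-numbered libraries deviated together in replicates 1 and 4 (r = 0.24 and 0.40) and oppositely in 2 and 3 (-0.28 and -0.18). TG and WT libraries of the same depth class always deviated together, as TG replicate 1 with WT replicate 2 (0.46). Those of different classes always deviated oppositely, as TG replicate 4 with WT replicate 2 (-0.44). The signs follow depth class, so these values cannot show whether the numbers pair the samples. The sign was kept by 16 of the 32 genes in each alternative that tested them. In the deeper libraries only, the sign changed for Fcgr1 (0.24), Itgam (0.12), Aif1 (-0.20), Ctss (0.089), Mertk (0.048), Cx3cr1 (0.37), Lyve1 (0.062), Cd74 (0.14), H2-Aa (0.17), H2-Ab1 (0.036) and H2-Eb1 (0.23), and in the shallower only for Ptprc (0.18) and Cd163 (-0.092). Without 1 library the value ranged from -0.52 to 0.12 in Ptprc, -0.20 to 0.11 in Itgam, -0.19 to 0.29 in Aif1, -0.23 to 0.11 in Ctss, -0.34 to 0.013 in Adgre1, -0.15 to 0.13 in Mertk, -0.59 to 0.22 in Cx3cr1, -0.25 to 0.18 in Ms4a7, -0.24 to 0.15 in Lyve1, -0.064 to 0.39 in Cd163, -0.51 to 0.15 in Ccr2, -0.46 to 0.012 in H2-Aa and -0.47 to 0.10 in H2-Eb1. The cause was not tested. Depth limits Ccr2, Itgax, Aif1, Ms4a7 and Ptprc most, with 4.04 to 10 counts in their lowest library.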
